A study of Homo sapiens with 4 samples.

Results

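The genes described here encode the enzymes that add methyl groups to histones and the demethylases other than KDM1A and its relative KDM1B, measured by RNA sequencing in cancer stem cells (CSCs) of the triple-negative breast cancer line MDA-MB-231. They were chosen by patterns in the gene name: the KDM2 to KDM8, JHDM, JMJD, PHF2 and PHF8 demethylases, the MLL, SETD, SETMAR, EHMT, SUV39H, SUV420H, EZH, NSD1, WHSC1, DOT1L, ASH1L and SMYD methyltransferases, the PRMT genes with CARM1, and the PRDM genes. KDM5D and UTY, on the Y chromosome, were left out, which gave 89 members of 23228 genes in the count files. Of these, 81 held enough reads to be tested and 8 did not. The name patterns also took in genes that are not enzymes of this kind. The 6 MLLT genes encode partners that MLL fuses with in leukaemia, and most of the 15 PRDM genes encode zinc-finger transcription factors, so both groups are described apart from the enzymes.

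The study reduced KDM1A, a histone demethylase that removes methyl marks by oxidation, with a short hairpin RNA (shRNA) delivered by lentivirus. Cells of both groups had been sorted with the ALDEFLUOR assay, which marks cells of high aldehyde dehydrogenase activity, and were grown in MammoCult, a medium for mammary spheres. The control group carried a control shRNA (2 libraries) and the other group KDM1A shRNA (2 libraries). The sample titles number the KDM1A shRNA libraries 1 and 2 and do not say whether both carried the same hairpin. The labels name no other treatment. They do not say whether the pair of libraries in a group stems from independent cultures, so the spread that the p-values rest on may be technical only.

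Gene reads per library ran from 23902900 to 26923678, and the members held 0.536% to 0.552% of them. Reads of KDM1A itself (chr1:23345936-23410182, GRCh37) numbered 4660 and 4059 in the controls and 561 and 649 with KDM1A shRNA. It was 7.02-fold lower with the shRNA (log2 fold change, log2 change for short, -2.81 ± 0.05 SE, edgeR adjusted p = 2.18e-14). ESR1 and PGR, the hormone receptors absent from triple-negative cells, had 9 reads or fewer in each library, while ERBB2 had 1672 to 2384. MDA-MB-231 is known to lack the CDKN2A locus on chromosome 9, yet the control libraries held reads of its genes. Reads of CDKN2A numbered 323 and 329 without the knockdown and 13 and 19 with it, and those of MTAP 271 and 256 against 15 and 14. The summed level of CDKN2A, CDKN2B and MTAP was 23.2 and 25.4 CPM (reads relative to the library's TMM-scaled total) in the controls and 1.17 and 1.32 CPM with the shRNA. Of 6 leukocyte markers all but CD14 and CD68 were under 1 CPM in every library, and the 6 summed to 179 and 182 CPM in the controls and to 127 and 125 CPM with the shRNA. Of 5 endothelial markers 3 were under 1 CPM in every library, and the 5 summed to 94.7 to 102 CPM in the controls and 54.0 to 56.1 CPM with the shRNA. The 6 fibroblast markers were mixed: DCN and PDGFRA were lower, while LUM, PDGFRB and COL1A1 were higher, by 7.46-, 2.77- and 1.81-fold, and the sum, most of it DCN, was 142 to 146 CPM against 101 to 109 CPM. Every result below rests on the same control libraries, and the part of these differences in the results was not tested. In bulk RNA, fewer cells of a type and less RNA per cell cannot be told apart.

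Histone methylation is written on lysines by SET-domain enzymes and DOT1L and on arginines by the PRMT enzymes, and it is erased by KDM1 proteins and by the JmjC-domain demethylases, which need iron and oxoglutarate. Marks differ in what they go with: methylation of H3K4, H3K36 and H3K79 lies at active genes, and that of H3K9, H3K27 and H4K20 at silent or compacted chromatin. KDM1A removes mono- and dimethyl marks from H3K4, and the KDM5 enzymes, which remove the trimethyl mark, are its JmjC counterparts. EZH2, the catalytic subunit of Polycomb repressive complex 2, is driven by E2F factors in dividing cells and is often high in triple-negative breast cancer.

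Promoters are shown for 4 members as examples of both directions, chosen after their values were seen: EZH2 and SUV39H1, writers of H3K27 and H3K9 methylation that were higher with KDM1A shRNA, and JHDM1D and KDM3A, JmjC erasers that were lower. Each is a 300-base RefSeq window of GRCh38.p14 around an annotated transcription start, and where a gene has several, the window with the most CpG dinucleotides was taken. The EZH2 window lies at chr7:148884242-148884541 (minus strand), that of SUV39H1 at chrX:48696484-48696783 (plus), that of JHDM1D at chr7:140176934-140177233 (minus) and that of KDM3A at chr2:86441211-86441510 (plus). Capitals mark the E2F-type octamers TTTCCCGC, TTTCGCGC, TTTGCCGC and TTTGGCGC and the CCAAT box, on either strand.
EZH2: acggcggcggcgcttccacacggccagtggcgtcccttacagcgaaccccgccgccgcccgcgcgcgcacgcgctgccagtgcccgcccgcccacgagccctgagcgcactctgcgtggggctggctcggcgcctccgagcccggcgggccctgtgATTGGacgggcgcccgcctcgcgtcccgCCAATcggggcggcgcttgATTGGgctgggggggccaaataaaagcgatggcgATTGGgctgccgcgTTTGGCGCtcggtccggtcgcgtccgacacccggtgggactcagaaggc
SUV39H1: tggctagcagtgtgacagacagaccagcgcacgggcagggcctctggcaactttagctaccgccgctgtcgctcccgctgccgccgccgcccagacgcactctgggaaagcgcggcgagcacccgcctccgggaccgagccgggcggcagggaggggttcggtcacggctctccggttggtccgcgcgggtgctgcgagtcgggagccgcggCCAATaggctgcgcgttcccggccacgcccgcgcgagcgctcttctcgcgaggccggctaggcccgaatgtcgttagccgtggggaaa
JHDM1D: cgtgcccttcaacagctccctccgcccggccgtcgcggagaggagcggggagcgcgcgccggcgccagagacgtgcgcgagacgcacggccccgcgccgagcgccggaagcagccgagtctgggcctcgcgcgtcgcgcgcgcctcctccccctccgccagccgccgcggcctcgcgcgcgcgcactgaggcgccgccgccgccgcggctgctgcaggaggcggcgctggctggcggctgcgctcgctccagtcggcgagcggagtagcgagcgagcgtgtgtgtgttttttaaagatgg
KDM3A: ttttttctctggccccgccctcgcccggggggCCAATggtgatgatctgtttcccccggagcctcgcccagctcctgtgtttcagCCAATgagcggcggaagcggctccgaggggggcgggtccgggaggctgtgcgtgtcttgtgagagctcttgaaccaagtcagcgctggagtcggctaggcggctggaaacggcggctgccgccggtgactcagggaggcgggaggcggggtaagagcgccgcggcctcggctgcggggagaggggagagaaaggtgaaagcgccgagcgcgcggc
The EZH2 window held 1 E2F-type octamer, starting at base 252 of the window, 4 CCAAT boxes and 46 CpG dinucleotides. SUV39H1 held 1 CCAAT box and 42 CpG, KDM3A 2 CCAAT boxes and 31 CpG, and JHDM1D held neither motif but 56 CpG.

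Promoter windows were found for 78 members. An E2F-type octamer lay in 3 of 22 windows of members that were higher (13.6%), in 0 of 32 windows of members that were lower and in 3 of 52 windows of the members not called (5.77%). Among all 35116 promoter windows of the table, 3.31% held one. CCAAT boxes lay in 50.0%, 37.5% and 30.8% of the same member windows and in 34.6% of all windows. The windows also differed in CpG content, with a median of 42 CpG for members that were higher, 28 for those lower, 29 for those not called and 14 for all windows. The motif shares were not compared at equal CpG content. The 3 windows with an octamer among members that were higher belonged to EZH2, WHSC1 and JMJD1C. With libraries scaled instead to 20 genes typical of MDA-MB-231, WHSC1 and JMJD1C had log2 fold changes of -0.016 and -0.048, and EZH2 0.36. Of these 3 genes only EZH2 was higher on both scales. Several windows can belong to 1 gene, a match of letters is not a site, and no match says only that these letters are not in the window.

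Most members moved little. With KDM1A shRNA 16 of the 81 tested members were higher and 22 lower (edgeR quasi-likelihood test, Benjamini-Hochberg adjusted p under 0.05 over 14012 genes), which is 19.8% and 27.2%. Over all tested genes 27.3% were higher and 28.8% lower, 56.1% in all, against 46.9% of the members, so the members' shares were near or below the background. The median log2 fold change of the members was -0.06 and that of all tested genes was -0.0047. Of the 38 called members 32 changed by less than 1.5-fold. Only JHDM1D, SUV420H2 and PRDM16 were lower by 2-fold or more, where 8.54% of all tested genes were. In the other direction 0 members reached 2-fold, where 3.07% of all tested genes did. Levels of the groups did not overlap in 65 members (80.2%), against 77.7% of all tested genes.

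In what follows, values of control libraries 1 and 2 come before "against" and those of KDM1A shRNA libraries 1 and 2 after it, and a number in brackets after another setting is the adjusted p under that setting. Counts of calls within a class or list stand beside 27.3% higher and 28.8% lower over all tested genes. The split between higher and lower depends on the scale. When the libraries were instead scaled to 20 genes typical of MDA-MB-231, every log2 fold change moved down by about 0.19, the median of all genes became -0.20, and 6 members were higher and 52 lower. The higher share of the members' calls was then 10.3% in place of 42.1%, and that of all genes' calls 20.3% in place of 48.7%. The 20 genes were not stable themselves: on the reported scale 12 were called higher, 7 lower and 1 not called. Their log2 fold changes ran from -0.44 for TGFBI to 1.09 for PLAU. The shift is their median change in these same libraries, so this scale is an alternative and not a fixed reference. The 6 members higher on both scales were EZH2, SUV39H1, SMYD2, SMYD4, PRDM11 and MLLT11. Among the called members 17 kept their call under every alternative that tested them: EZH2, SUV39H1, SMYD2, SMYD4 and MLLT11, which were higher, and PRMT1, KDM6B, KDM5A, KDM5B, KDM5C, MLL2, SUV420H1, SUV420H2, JHDM1D, KDM3A, KDM2B and PRDM16, which were lower.

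**Figure D1:**
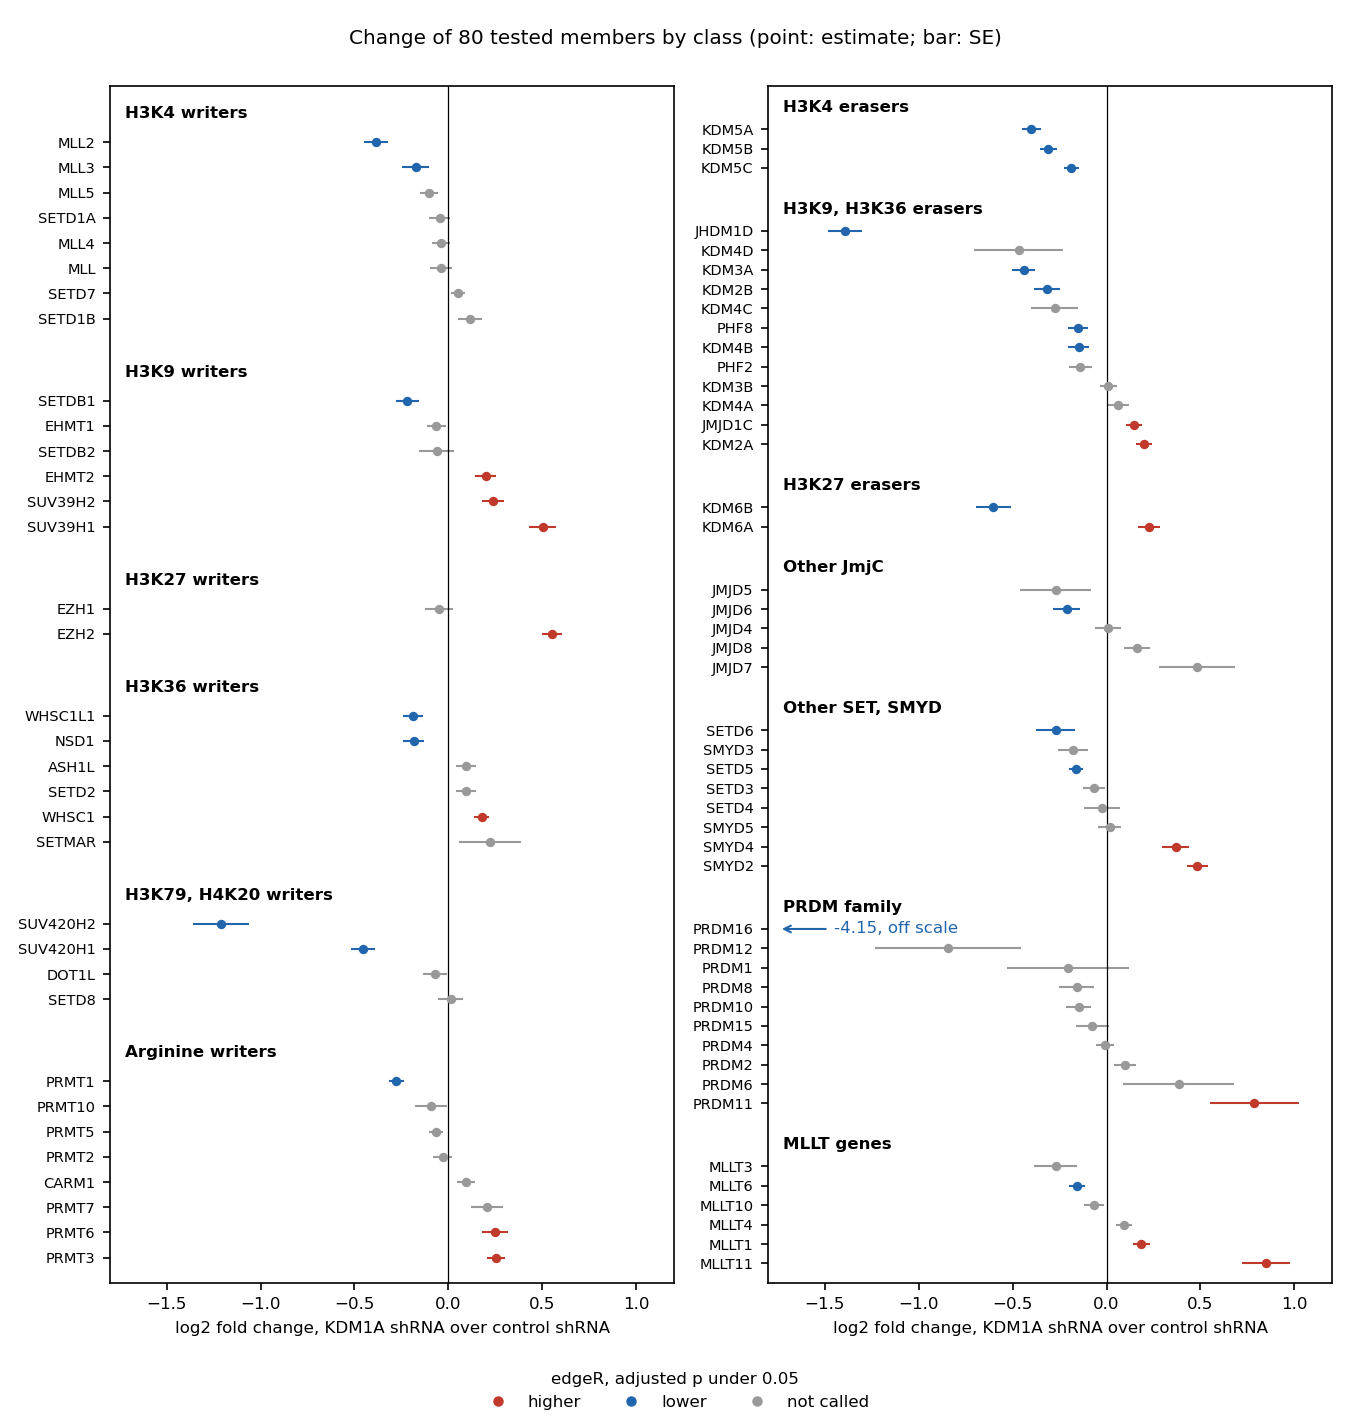
Log2 fold change (KDM1A shRNA over control shRNA, horizontal axis) of 80 of the 81 tested members, grouped by class, with the SE as a bar; red is higher, blue lower and grey not called (edgeR, adjusted p under 0.05). All 3 KDM5 genes sit left of zero, EZH2 and SUV39H1 lie near 0.5, JHDM1D and SUV420H2 lie beyond -1, and PRDM16 at -4.15 is off the scale.

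The JmjC erasers of H3K4 methylation, which share a substrate with KDM1A, were lower: all 3 tested KDM5 genes were lower with KDM1A shRNA, by 1.14 to 1.32-fold. KDM5A (chr12:389223-498486), a retinoblastoma-binding demethylase, was at 91.1 and 85.4 CPM in control libraries 1 and 2 and at 66.2 and 67.6 CPM in KDM1A shRNA libraries 1 and 2. It fell by 0.40 on the log2 scale (SE 0.05, edgeR adjusted p = 1.09e-05). KDM5B (chr1:202693623-202777615), often high in breast cancer, was at 131 CPM in both controls and at 108 and 104 CPM with the shRNA, a log2 fold change of -0.31 (SE 0.04, edgeR adjusted p = 2.71e-05). KDM5C (chrX:53205465-53254604), the most abundant eraser here per transcript length, was at 237 and 249 CPM against 214 and 213 CPM, a log2 fold change of -0.19 (SE 0.04, edgeR adjusted p = 0.000945). The groups did not overlap in these 3 genes, and the calls held under each alternative. Of all tested genes 28.8% were called lower, and in 77.7% the groups did not overlap.

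Of the 8 members grouped here as writers of H3K4 methylation 2 were lower, 0 higher and 6 not called. Their median log2 fold change was -0.04. The grouping, which takes in MLL5, does not show that each member has this activity. MLL2 was at 111 and 94.6 CPM in the controls and at 80.9 and 76.4 CPM with the shRNA (log2 change -0.39 ± 0.06 SE, edgeR adjusted p = 0.000136). The symbol has been used for both KMT2B and KMT2D, as has MLL4, so no position or length is given for either. MLL3, which methylates H3K4 at enhancers, was at 112 and 91.5 CPM against 88.1 and 92.0 CPM, and these ranges overlap. Its log2 fold change of -0.17 (SE 0.07, edgeR adjusted p = 0.0487) was -0.021 without control library 1 (adjusted p = 0.734) and -0.31 without control library 2. The call was also missed without KDM1A shRNA library 1 (0.238) or 2 (0.0861), with RLE factors (0.0518), library size alone (0.0595), limma-voom (0.0632) and DESeq2 (0.397). MLL itself, the founding member, was at 129 and 110 CPM against 116 and 116 CPM, with the shRNA values between those of the controls (log2 fold change -0.04, edgeR adjusted p = 0.601). On the MDA-MB-231 scale MLL was called lower (log2 fold change -0.23, edgeR adjusted p = 0.00349). Its value was 0.08 without control library 1 and -0.15 without control library 2, where it was called (adjusted p = 0.00113). MLL4, MLL5, SETD1A, SETD1B and SETD7 were not called, and exons of MLL5 overlap SRPK2.

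Among the 12 partners of the H3K4 writers, which include the core subunits that all MLL and SETD1 complexes share, 3 were higher and 2 lower, and 1 was higher and 4 lower on the MDA-MB-231 scale. PAXIP1, a subunit of the MLL3 complex, was at 61.2 and 62.8 CPM against 84.7 and 85.6 CPM (log2 change 0.46 ± 0.05 SE, edgeR adjusted p = 1.85e-06). PSIP1, a chromatin tether of MLL, was at 59.5 and 54.1 CPM against 39.6 and 42.7 CPM (log2 change -0.47 ± 0.06 SE, edgeR adjusted p = 2.25e-05).

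Of the enzymes of H3K27 methylation, 1 of the 2 writers was higher, and of the 2 erasers 1 was lower and 1 higher. EZH2 (chr7:148504349-148581413) was at 50.2 and 53.2 CPM in the controls and at 76.5 and 74.9 CPM with KDM1A shRNA, a log2 fold change of 0.55 (SE 0.05, edgeR adjusted p = 6.59e-07). It was the member with the smallest p among those that were higher, and it stayed higher on the MDA-MB-231 scale (log2 fold change 0.36). EZH1, its paralog in resting cells, was at 27.1 and 29.8 CPM against 28.5 and 26.5 CPM, and the groups overlapped (log2 fold change -0.05, edgeR adjusted p = 0.585). EZH1 was called lower on the MDA-MB-231 scale (log2 fold change -0.24, edgeR adjusted p = 0.0104). KDM6B (chr17:7737535-7758114), the inducible H3K27 demethylase, was at 21.5 and 25.4 CPM in the controls and at 15.2 and 15.6 CPM with the shRNA. It fell by 0.60 on the log2 scale (SE 0.09, edgeR adjusted p = 5.6e-05). KDM6A, its X-linked relative, was at 42.6 and 43.8 CPM against 49.7 and 51.4 CPM (log2 change 0.23 ± 0.06 SE, edgeR adjusted p = 0.00352). It was not called without KDM1A shRNA library 2 (0.0637) or on the MDA-MB-231 scale (log2 fold change 0.03, adjusted p = 0.62).

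All 9 partners of Polycomb repressive complex 2 were called, 4 higher and 5 lower, where 56.1% of all tested genes were called. EED, SUZ12, RBBP7 and PHF19 were higher, with log2 fold changes from 0.19 to 0.38. RBBP4, JARID2, AEBP2, MTF2 and PHF1 were lower, with log2 fold changes from -0.68 to -0.22. The median of the 9 was -0.22, and on the MDA-MB-231 scale 1 was higher and 5 lower. JARID2, which recruits the complex and limits its activity, was at 66.7 and 64.7 CPM in the controls and at 41.2 and 40.8 CPM with the shRNA (log2 change -0.68 ± 0.05 SE, edgeR adjusted p = 8.89e-08). PHF19, a Polycomb-like subunit that binds methylated H3K36, was at 95.8 and 96.3 CPM against 124.9 and 124.5 CPM (log2 change 0.38 ± 0.04 SE, edgeR adjusted p = 3.41e-06).

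Ratios within a library do not depend on how libraries are scaled. The ratio of EZH2 to EZH1 reads per kilobase was 3.23 and 3.11 in the controls and 4.68 and 4.94 with KDM1A shRNA. That of KDM6A to KDM6B was 2.18 and 1.91 against 3.60 and 3.64. That of SUV420H1 to SUV420H2 was 3.65 and 2.92 against 5.86 and 5.26, and that of KDM3B to KDM3A 1.51 and 1.57 against 2.12 and 2.08. In these 4 pairs both shRNA libraries lay above both controls. SUV39H2 to SUV39H1 went the other way, from 1.66 and 1.51 to 1.34 and 1.30, as did EHMT1 to EHMT2, from 1.27 and 1.26 to 1.09 and 1.02, and PRMT1 to PRMT5, from 2.20 and 2.35 to 1.94 and 2.00. Of 12 pairs computed, both shRNA libraries lay above both controls in 8 and below them in 3, and the groups overlapped in 1, KDM5B to KDM5A. Which gene of a pair was divided by the other was a choice, so the split between above and below has no meaning of its own. Levels of single genes did not overlap in 77.7% of all tested genes, and no such share was computed for other pairs. With 2 libraries against 2, an exact two-sided permutation test of a ratio cannot reach 0.05, since its smallest p is 1 in 3, so the ratios carry no test.

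**Figure D2:**
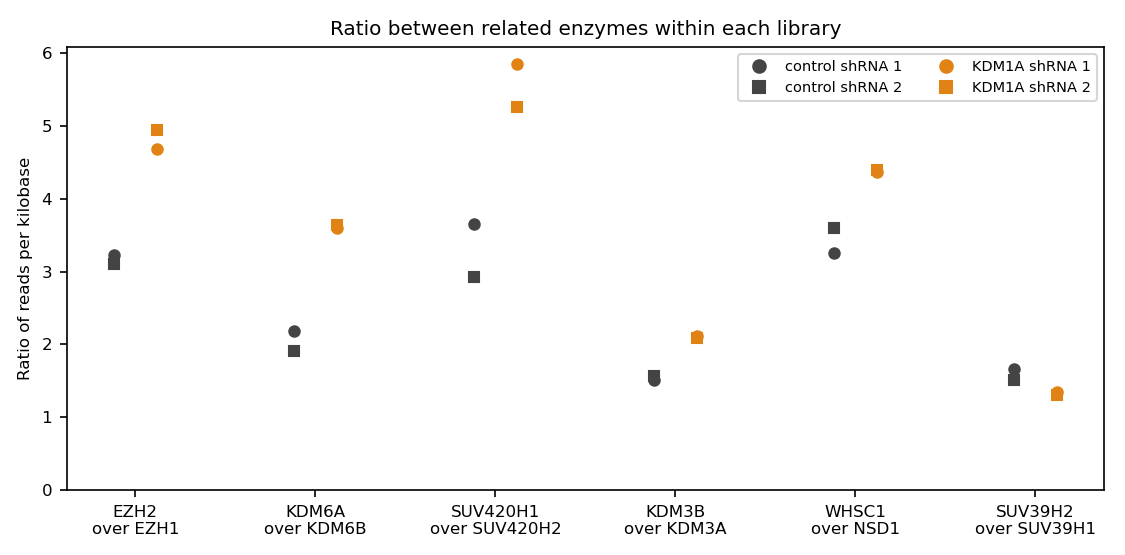
Ratio of reads per kilobase of transcript between related enzymes (vertical axis, linear, from 0) in each library; grey is control shRNA and orange KDM1A shRNA, circles library 1 and squares library 2. The shRNA libraries lie above the controls in the first 5 pairs, for example 4.68 and 4.94 against 3.23 and 3.11 for EZH2 over EZH1, and below them for SUV39H2 over SUV39H1.

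Among the writers of H3K9 methylation, which mark heterochromatin and silenced genes, 3 of 6 were higher, 1 was lower and 2 were not called. SUV39H1 (chrX:48553945-48567407), which trimethylates H3K9 at pericentric heterochromatin, was at 20.4 and 21.7 CPM against 29.8 and 29.6 CPM (log2 change 0.50 ± 0.07 SE, edgeR adjusted p = 3.29e-05). On the MDA-MB-231 scale its log2 fold change was 0.31. SUV39H2, its paralog, was at 37.8 and 36.7 CPM against 44.7 and 43.1 CPM (log2 change 0.24 ± 0.06 SE, edgeR adjusted p = 0.00365). EHMT2, also called G9a, which dimethylates H3K9, was at 48.5 and 51.0 CPM against 55.3 and 58.7 CPM (log2 change 0.20 ± 0.06 SE, edgeR adjusted p = 0.00869). SUV39H2 was not called without KDM1A shRNA library 1 (0.0637), EHMT2 without library 2 (0.148), and neither was on the MDA-MB-231 scale. SETDB1, which silences retroelements together with KAP1, was at 57.8 and 58.2 CPM against 52.6 and 47.2 CPM (log2 change -0.22 ± 0.06 SE, edgeR adjusted p = 0.00657), and was not called without KDM1A shRNA library 2 (log2 fold change -0.14, 0.192). EHMT1, the partner of EHMT2, was at 78.9 and 82.3 CPM against 77.4 and 76.7 CPM and was not called (log2 fold change -0.06, edgeR adjusted p = 0.281), nor was SETDB2. EHMT1 was called lower on the MDA-MB-231 scale (log2 fold change -0.26, edgeR adjusted p = 0.000328). Part of the exons of SUV39H2 overlap DCLRE1C and part of those of SETDB1 overlap CERS2, and without stated strand counting their reads cannot be told apart there.

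Of 8 readers and partners of H3K9 methylation 4 were higher and 1 lower, and 1 was higher and 3 lower on the MDA-MB-231 scale. UHRF1, which reads methylated H3K9 and hemimethylated DNA during replication, was at 31.1 and 29.3 CPM against 52.1 and 50.3 CPM (log2 change 0.76 ± 0.06 SE, edgeR adjusted p = 1.07e-07). CBX5, the heterochromatin protein HP1 alpha, was at 185 and 167 CPM against 130 and 125 CPM (log2 change -0.47 ± 0.05 SE, edgeR adjusted p = 1.52e-06).

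The JmjC erasers of H3K9 and H3K36 methylation held the member with the smallest p of all. Of the 12 tested, 5 were lower, 2 higher and 5 not called, with a median log2 fold change of -0.15. JHDM1D (chr7:139784546-139876783), now called KDM7A, removes dimethyl marks from H3K9 and H3K27. Its reads numbered 692 and 577 against 232 and 238, or 25.8 and 23.8 CPM against 9.69 and 9.22 CPM. It was 2.63-fold lower (log2 change -1.39 ± 0.09 SE, edgeR adjusted p = 8.69e-09). KDM3A (chr2:86667770-86719839), a hypoxia-induced H3K9 demethylase, was at 70.6 and 63.4 CPM against 49.8 and 49.1 CPM (log2 change -0.44 ± 0.06 SE, edgeR adjusted p = 2.08e-05), while its paralog KDM3B was not called. The 2 KDM2 genes, H3K36 demethylases that bind unmethylated CpG islands, differed in sign. KDM2B was at 38.4 and 35.0 CPM against 28.4 and 30.5 CPM (log2 change -0.32 ± 0.07 SE, edgeR adjusted p = 0.00146), and part of its exons overlap RNF34. KDM2A was at 208 and 192 CPM against 231.4 and 227 CPM (log2 change 0.20 ± 0.04 SE, edgeR adjusted p = 0.00122), and was not called on the MDA-MB-231 scale.

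The other members of this class moved less or had fewer reads. JMJD1C had a log2 fold change of 0.15 (edgeR adjusted p = 0.0108), which became -0.05 on the MDA-MB-231 scale, was 0.095 without control library 2 and lost the call without KDM1A shRNA library 1 (0.128) or 2 (0.0786). PHF8, which erases H3K9 and H4K20 marks, had -0.15 (edgeR adjusted p = 0.0229), lost without KDM1A shRNA library 1 (0.211) or 2 (0.101) and with DESeq2 (0.137). KDM4B, an estrogen receptor cofactor in luminal cells, was at 53.1 and 55.1 CPM against 48.9 and 48.8 CPM (log2 change -0.15 ± 0.06 SE, edgeR adjusted p = 0.0332). It lost the call without control library 2 (0.0765), without KDM1A shRNA library 1 (0.166) or 2 (0.192) and with DESeq2 (0.181). KDM4A was at 60.3 and 56.5 CPM against 61.8 and 60.3 CPM (log2 fold change 0.06, edgeR adjusted p = 0.344; -0.13 on the MDA-MB-231 scale). KDM4C was at 10.9 and 9.52 CPM against 9.39 and 7.56 CPM (log2 fold change -0.28, edgeR adjusted p = 0.075) and ranged from -0.44 to -0.12 over the libraries left out. With no library left out it was called on the MDA-MB-231 scale (log2 fold change -0.47, edgeR adjusted p = 0.00453). So it was with replicate number as a block (edgeR adjusted p = 0.0365) and where genes with at least 1 count in total were tested (0.0372). It was called without control library 2 (0.00842) or KDM1A shRNA library 1 (0.0276) and was not without control library 1 (0.283) or KDM1A shRNA library 2 (0.542). KDM4D, with 33 to 51 reads a library, had a log2 fold change of -0.47 that was not called (edgeR adjusted p = 0.106). It was called lower on the MDA-MB-231 scale (log2 fold change -0.66, edgeR adjusted p = 0.024).

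Over all JmjC genes, 10 of the 22 tested were lower and 3 higher (45.5% and 13.6%), with a median log2 fold change of -0.17. Over the SET-domain, DOT1L and PRMT genes, 10 of 42 were lower and 9 higher (23.8% and 21.4%), with a median of -0.04. These stand beside 28.8% lower and 27.3% higher among all tested genes. The 22 JmjC genes include 5 outside the eraser classes, and the 42 include 8 other SET and SMYD genes. The values are thus not those of erasers and histone writers alone, and the difference between the 2 sets was not tested. JMJD6, a lysyl hydroxylase, was the 1 called gene among 5 other tested JmjC genes, at 43.4 and 40.2 CPM against 33.8 and 38.3 CPM (log2 change -0.21 ± 0.07 SE, edgeR adjusted p = 0.0197). The call was lost without control library 1 (0.0518), without KDM1A shRNA library 1 (log2 fold change -0.13, 0.291) and with DESeq2 (0.0955). JMJD7 had a log2 fold change of 0.48 from 51 to 75 reads a library and was not called (edgeR adjusted p = 0.0563), but was without control library 2 (0.044). JMJD7 was also called with replicate number as a block (edgeR adjusted p = 0.0499) or where genes with at least 1 count in total were tested (0.0381). JMJD4, JMJD5 and JMJD8 were not called. Exons of JMJD4 overlap SNAP47, those of JMJD7 the read-through gene JMJD7-PLA2G4B and those of JMJD8 STUB1.

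**Figure D3:**
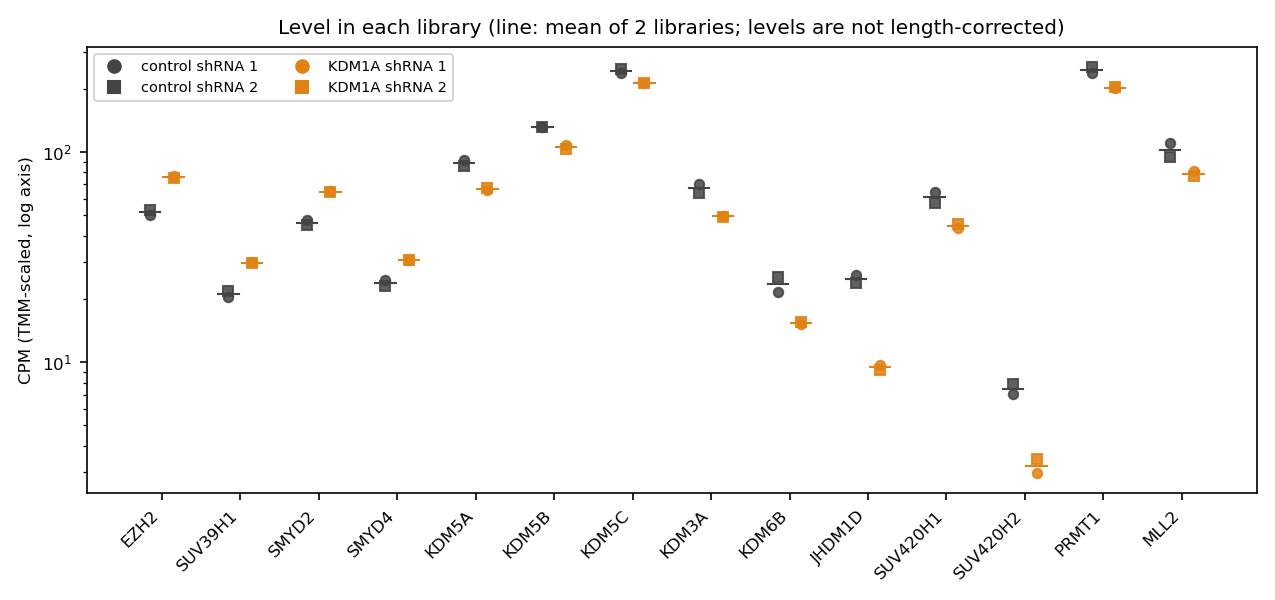
Level of 14 members in each library in TMM-scaled CPM (vertical axis, log scale; levels are not corrected for length), with the mean of the 2 libraries of a group as a line; grey is control shRNA and orange KDM1A shRNA, circles library 1 and squares library 2. EZH2, SUV39H1, SMYD2 and SMYD4 lie above the controls in both shRNA libraries, and the other 10 lie below, JHDM1D at 9.69 and 9.22 against 25.8 and 23.8 CPM.

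The writers of H4K20 di- and trimethylation were both lower. SUV420H2 (chr19:55851221-55859489), now called KMT5C, had 189 and 190 reads against 71 and 89, or 7.06 and 7.83 CPM against 2.96 and 3.45 CPM. It was 2.31-fold lower (log2 change -1.21 ± 0.15 SE, edgeR adjusted p = 7.37e-06). An overlapping gene model on the same strand shares part of its exons. SUV420H1 (chr11:67922330-67981319), the more abundant paralog, was at 64.4 and 57.2 CPM against 43.4 and 45.4 CPM (log2 change -0.45 ± 0.06 SE, edgeR adjusted p = 2.86e-05). SETD8, which places the monomethyl mark that both extend, was at 29.1 and 29.4 CPM against 29.0 and 29.96 CPM, and the groups overlapped (log2 fold change 0.01, edgeR adjusted p = 0.893). On the MDA-MB-231 scale SETD8 was called lower (log2 fold change -0.18, edgeR adjusted p = 0.0273). DOT1L, the writer of H3K79 methylation, was at 75.0 and 86.9 CPM against 76.2 and 77.8 CPM (log2 fold change -0.07, edgeR adjusted p = 0.353). DOT1L was called lower on the MDA-MB-231 scale (log2 fold change -0.26, edgeR adjusted p = 0.00182). Its value was -0.17 without control library 1, where it was called (adjusted p = 0.00197), and 0.04 without control library 2. Exons of DOT1L overlap PLEKHJ1.

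The writers of H3K36 methylation were mixed, with 1 of 6 higher and 2 lower. WHSC1, now called NSD2, was at 275 and 269 CPM against 300.5 and 314 CPM (log2 change 0.18 ± 0.04 SE, edgeR adjusted p = 0.00116), but its value was -0.02 on the MDA-MB-231 scale and it lost the call without KDM1A shRNA library 2 (0.0747). NSD1 was at 146 and 129 CPM against 119 and 123 CPM (log2 change -0.19 ± 0.05 SE, edgeR adjusted p = 0.0091), and was not called without control library 1 (log2 fold change -0.093, 0.052) or KDM1A shRNA library 1 (-0.16, 0.122). WHSC1L1 (NSD3) had a log2 fold change of -0.19 (edgeR adjusted p = 0.00855), lost without KDM1A shRNA library 2 (0.162) and with DESeq2 (0.055). SETD2, which trimethylates H3K36, was at 149 and 130 CPM against 151 and 147 CPM (log2 fold change 0.09, edgeR adjusted p = 0.169). Control library 2 was below the other 3: without control library 1 the log2 fold change of SETD2 was 0.20 (adjusted p = 3.28e-06), and it was -0.10 on the MDA-MB-231 scale. SETMAR had 0.22 from 87 to 129 reads a library and was not called (edgeR adjusted p = 0.265), but was without control library 1 (0.0487), and ASH1L was not called.

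Among 8 tested arginine methyltransferases 2 were higher, 1 lower and 5 not called. PRMT1 (chr19:50179043-50192286), which makes most asymmetric dimethylarginine in cells, was the most abundant member per transcript length with a mean of 184.8 CPM per kilobase in the controls. It was at 238 and 253 CPM against 201 and 204 CPM (log2 change -0.28 ± 0.04 SE, edgeR adjusted p = 4.16e-05) and kept the highest rank among the 87 members with a length. PRMT3, a cytoplasmic enzyme that modifies a ribosomal protein, was at 71.0 CPM in both controls and at 85.01 and 84.1 CPM with the shRNA (log2 change 0.25 ± 0.05 SE, edgeR adjusted p = 0.000392). PRMT6, which methylates H3R2, was at 23.3 and 23.7 CPM against 28.2 and 27.6 CPM (log2 change 0.25 ± 0.07 SE, edgeR adjusted p = 0.00751). Both lost the call on the MDA-MB-231 scale, and PRMT6 also without KDM1A shRNA library 1 (0.0695) and with DESeq2 (0.0634).

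PRMT5, the main symmetric dimethyltransferase and second to PRMT1 in level per length, was at 187 and 186 CPM against 180 and 177 CPM (log2 fold change -0.07, edgeR adjusted p = 0.153). It was called lower on the MDA-MB-231 scale (log2 fold change -0.26, edgeR adjusted p = 3.57e-05). CARM1, a coactivator, was at 89.1 and 92.8 CPM against 97.4 and 96.7 CPM (log2 fold change 0.09, edgeR adjusted p = 0.0971; -0.10 on the MDA-MB-231 scale), and was called without control library 2 (0.0208). PRMT7 had a log2 fold change of 0.20 (edgeR adjusted p = 0.0543), called without control library 2 (0.00209), and PRMT2 and PRMT10 were not called. PRMT7 was also called with replicate number as a block (edgeR adjusted p = 0.0254) or where genes with at least 1 count in total were tested (0.0242). Exons of CARM1 overlap YIPF2 and those of PRMT7 overlap SMPD3.

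Of 4 partners of PRMT5, 2 were higher and 1 lower, and 0 were higher and 2 lower on the MDA-MB-231 scale. CLNS1A, which brings it spliceosomal proteins, was at 151 and 145 CPM against 119 and 116 CPM (log2 fold change -0.34, edgeR adjusted p = 1.18e-05). WDR77, its obligate cofactor, had a log2 fold change of 0.17 (edgeR adjusted p = 0.00882), which was -0.02 on the MDA-MB-231 scale and lost the call without KDM1A shRNA library 2 (0.165). Among 8 tested genes of the cycle that supplies and renews S-adenosylmethionine, the methyl donor of every writer, 4 were higher and 2 lower, and 2 were higher and 3 lower on the MDA-MB-231 scale. MAT2A, which makes the donor, was at 249 CPM in both controls and at 332 and 330 CPM with the shRNA (log2 change 0.41 ± 0.04 SE, edgeR adjusted p = 2.15e-07). ADK, which clears the adenosine that the cycle releases, was at 95.4 and 94.5 CPM against 122 and 128 CPM (log2 fold change 0.39, edgeR adjusted p = 3.49e-06).

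Among the 8 other tested SET and SMYD genes, many of which methylate proteins other than histones, 2 were higher and 2 lower. SMYD2 (chr1:214454445-214510474), which methylates p53 and RB1, was at 47.4 and 44.8 CPM against 64.8 and 64.2 CPM (log2 change 0.48 ± 0.06 SE, edgeR adjusted p = 3.43e-06). In level per length it moved from rank 12 to rank 5 of the 87 members. SMYD4 was at 24.5 and 23.1 CPM against 30.6 and 30.8 CPM (log2 change 0.37 ± 0.07 SE, edgeR adjusted p = 0.000399). On the MDA-MB-231 scale the log2 fold changes were 0.29 for SMYD2 and 0.17 for SMYD4. SETD5 was at 223 and 222 CPM against 199 and 199 CPM (log2 fold change -0.16, edgeR adjusted p = 0.00168), lost without KDM1A shRNA library 1 (0.0515) or 2 (0.0587). SETD6, which methylates the NF-kappa-B subunit RelA and whose exons overlap CNOT1, had -0.27 (edgeR adjusted p = 0.0385), lost without control library 2 (0.0502), without KDM1A shRNA library 2 (log2 fold change -0.16, 0.356) and with DESeq2 (0.222). SETD3, SETD4, SMYD3 and SMYD5 were not called, and SMYD1, a muscle gene, had 0 reads in each library.

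Of the 15 PRDM genes 4 did not pass the filter on low reads, and of the 11 others, with a median level of 10.04 CPM in the controls, 2 were higher and 1 lower. PRDM16 (chr1:2985732-3355185), a regulator of brown fat and of blood and neural stem cells, had 39 and 38 reads against 2 and 2 with KDM1A shRNA. It stood at 5.64% of its control level (log2 change -4.15 ± 0.46 SE, edgeR adjusted p = 2.72e-06), on few reads. PRDM13, a neural factor, had 7 and 15 reads against 0 and 0, at least 7.15-fold lower against a floor of 3 counts over the group. It was below the filter, and was called lower where genes with at least 1 count in total were tested (adjusted p = 5.07e-05), while PRDM7, PRDM9, PRDM14 and PRMT8 were not called there. The genes of the CDKN2A locus were lower too: reads of CDKN2A went from 323 and 329 to 13 and 19 (log2 fold change -4.30) and those of MTAP from 271 and 256 to 15 and 14 (-4.14). The part of the difference at that locus in the PRDM16 and PRDM13 values was not tested.

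PRDM11 had 37 and 29 reads against 58 and 53 (log2 change 0.79 ± 0.24 SE, edgeR adjusted p = 0.0107), lost without KDM1A shRNA library 1 (0.0868) and with DESeq2 (0.124). PRDM12 had 18 and 19 reads against 8 and 12 and was not called (log2 fold change -0.84, edgeR adjusted p = 0.079). On the MDA-MB-231 scale it was called lower (log2 fold change -1.03, edgeR adjusted p = 0.0305). PRDM1, PRDM2, PRDM4, PRDM6, PRDM8, PRDM10 and PRDM15 were not called. PRDM9, the enzyme that places meiotic recombination, had 3, 3, 6 and 3 reads, PRDM7 had 1, 2, 0 and 0 and PRDM14 had 0, 1, 0 and 0, in the order of control libraries 1 and 2 and shRNA libraries 1 and 2. PRMT8, a neuronal enzyme, had 1 read in each library, and KDM4DL and JMJD7-PLA2G4B had 0, so changes in them were not detectable at this depth.

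Of the 6 MLLT genes 2 were higher and 1 lower. MLLT11 (chr1:151032873-151042020) was at 5.19 and 4.53 CPM against 8.94 and 8.64 CPM (log2 change 0.85 ± 0.13 SE, edgeR adjusted p = 5.24e-05), and part of its exons overlap CDC42SE1. MLLT1, a subunit of the super elongation complex, had 0.19 (edgeR adjusted p = 0.00383), which was -0.01 on the MDA-MB-231 scale and lost the call without KDM1A shRNA library 1 (0.127). MLLT6 had -0.16 (edgeR adjusted p = 0.00539), lost without KDM1A shRNA library 1 (0.0638) or 2 (0.105). MLLT3 was not called (log2 fold change -0.27, edgeR adjusted p = 0.0593), and its log2 fold change was -0.34 without control library 2. It was called on the MDA-MB-231 scale (log2 fold change -0.46, edgeR adjusted p = 0.00279) and with upper quartile scaling (0.0407). So it was with replicate number as a block (edgeR adjusted p = 0.0375), at a minimum total of 1 count (0.0433) and at a minimum mean of 5 CPM (0.0439). MLLT4 and MLLT10 were not called.

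The 43 tested members that were not called had log2 fold changes from -0.84 to 0.48, and 26 of them lay within 0.1 of zero. Their SE had a median of 0.064 on the log2 scale and ran from 0.038 to 0.39. In 28 of these 43 members the groups did not overlap. The share over all tested genes, called ones included, was 77.7%, and that of genes not called was not computed.

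**Figure D4:**
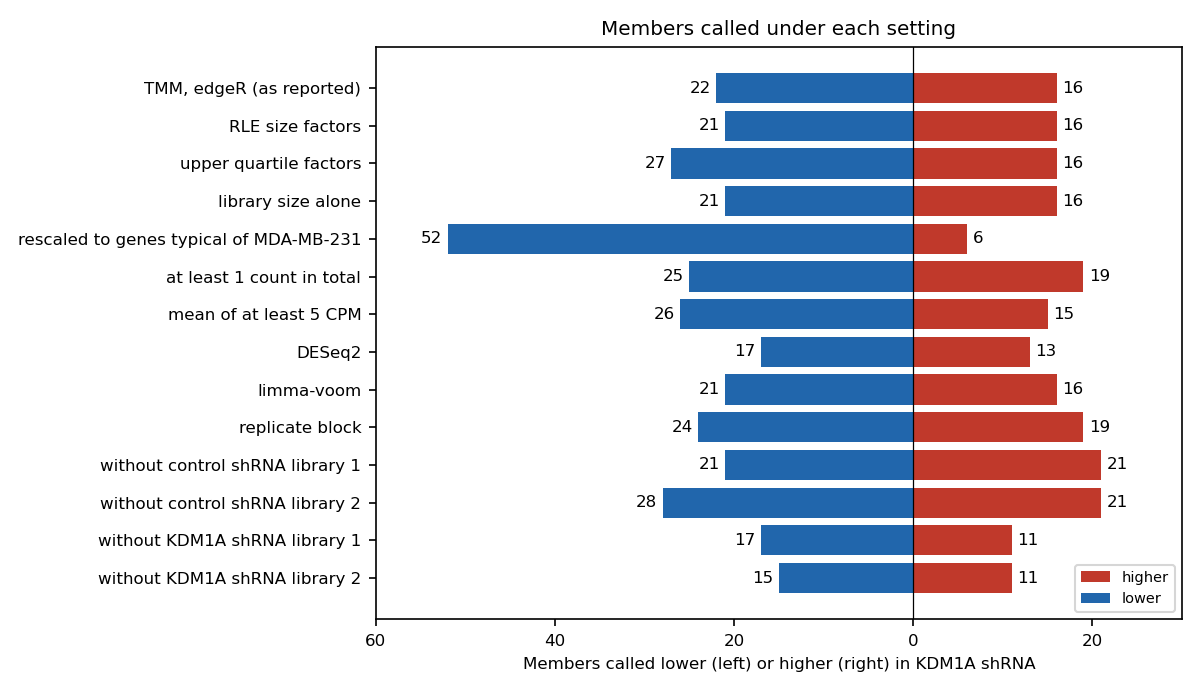
Members called higher (red, to the right) and lower (blue, to the left) in KDM1A shRNA under each setting; the horizontal axis counts members. The counts ran from 6 to 21 higher and from 15 to 52 lower, and the scale set by genes typical of MDA-MB-231 gave 6 higher and 52 lower.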

How the data were processed

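Total RNA from 4 samples of sorted MDA-MB-231 cells was made into TruSeq total RNA libraries and read as single ends, per the labels' protocols. The authors deposited 1 file of raw read counts per gene for each library. Per the submitters' processing notes they used CASAVA 1.8.2, TopHat2 2.0.8b and HTSeq on hg19; the strand setting, the annotation and how reads were kept or dropped are not given in the sources used here. The 5 HTSeq summary lines were left out of library sizes: non-unique alignments took 32.2% and 31.9% of all lines' counts in the controls and 29.8% and 29.7% with KDM1A shRNA, and reads outside genes 8.21% to 8.61%.

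Counts were tested with edgeR 4.0.16 (quasi-likelihood F-test, TMM scaling, filterByExpr with a minimum count of 10 and a minimum total of 15, R 4.3.3), with Benjamini-Hochberg adjustment over the 14012 genes kept and a threshold of 0.05. CPM are TMM-scaled. Levels per kilobase use the Ensembl canonical transcript of GENCODE for GRCh37. Members were matched by symbol (74) or by 1 older symbol (13), and 2 symbols were ambiguous. A floor of 3 counts equals 0.112 to 0.125 CPM per library and covers counting error only.

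Alternatives were other scalings, other filters, DESeq2 1.42.0, limma 3.58.1 (voom), a replicate block and leaving out each library. Called members were named, with values per library for up to 4 called members per class with the smallest p, for a list of well-known members, and for up to 2 called genes of each partner list; values of other members were added where a left-out library changed a call. Members, classes and lists were chosen with earlier results of these data known. Sequences are RefSeq's, on GRCh38.p14. Values of 1 tested member are not reported here; it is kept in all counts.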

Additional observations from a re-analysis of the deposited data

How the results depend on the processing

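Of the 38 called members 17 kept their call under every alternative that tested them, and 19 did under all but the scaling on 20 genes typical of MDA-MB-231. That scaling gave 6 members higher and 52 lower, where the reported scale gave 16 and 22; 28 of the 38 kept their call, 7 lost it and 3 changed sign. Another 24 members, not called on the reported scale, were called under it with the same sign. In all 16 members changed sign under it. Among genes given with values, the log2 fold changes of the opposite sign were -0.10 for CARM1, -0.048 for JMJD1C, -0.13 for KDM4A, -0.0069 for MLLT1, -0.10 for SETD2, -0.18 for SETD8, -0.016 for WHSC1 and, among the partners, -0.019 for WDR77. Leaving out 1 library at a time gave 11 to 21 members higher and 15 to 28 lower: 11 and 17 without KDM1A shRNA library 1, 11 and 15 without KDM1A shRNA library 2, 21 and 21 without control library 1, and 21 and 28 without control library 2. In these fits the group with 1 library is assumed to vary like the other, but the chi-square per degree of freedom between libraries was 4.13 for the controls and 1.62 for KDM1A shRNA. The sign turned for 13 members when 1 library or another was left out, 0 of them called with all 4 libraries; of those given with values these were MLL (-0.15 to 0.080 over the libraries left out), DOT1L (-0.17 to 0.037), EZH1 (-0.12 to 0.016), SETD2 (-0.0046 to 0.20) and SETD8 (-0.0092 to 0.035); SETD8 was also -0.014 with upper quartile scaling and -0.011 with a minimum of 5 CPM. DESeq2 lost 9 of the 38 calls and reversed 0. A replicate block kept all 38 calls and added 5 (19 higher, 24 lower), but same-numbered libraries deviated together with a correlation of 0.0152 across genes, so the numbers do not show pairing. The causes were not tested.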
